A study of Mangifera indica with 4 samples.

Results

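The 20 loci described here are the assembled mango loci with the most well-covered transcripts, and the question is how each locus divided its reads among its transcripts in healthy and in spongy flesh. The locus number was read from each transcript's name, loci 2 and 3 were left out, transcripts with a deposited mean normalized level of at least 100 over all libraries were kept, and the 20 loci with the most kept transcripts were taken, ties going to the lower number. They held 616 kept transcripts of 17414 kept outside loci 2 and 3, and 20 loci of 14276 in the whole data set of 30582 transcripts. The loci were thus chosen by the measured mean level over the 4 libraries, which is given only as a description, and no difference between groups was used. Locus 222 had the most kept transcripts, 52, and loci 59 and 871 the fewest, 23 each. Locus 1001, also with 23, was the first one outside by the tie rule. Nearest to the level minimum were transcript 177 of locus 868 inside, at a mean level of 100.1, and transcript 166 of locus 199 outside, at 99.8.

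RNA came from the mesocarp, the edible flesh, of Mangifera indica cultivar Alphonso fruit. The 4 groups were healthy fruit at 5 days after harvest, when the fruit is table green, healthy fruit at 10 days, when it is mid ripe, and fruit with spongy tissue at the same 5 and 10 days, all of the same cultivar and tissue. Spongy tissue is a disorder in which part of the flesh ripens into a pale, soft and corky mass under a sound skin. Each group held 1 library, and the labels do not say how many fruits went into it, so every difference below rests on 1 library against 1 library, with no replicate and no test. In bulk tissue, fewer cells of a type and less RNA per cell cannot be told apart.

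A locus in a transcriptome assembled without a genome is a cluster of contigs that share stretches of sequence. Its transcripts can be splice forms of a gene, forms with other starts or ends, alleles, close gene copies or partial contigs, and the names do not tell these apart. Cells can change how much RNA a locus makes, the total, or which of its forms they make, the shares. A share was taken as the reads of a transcript divided by the reads of all kept transcripts of its locus in the same library. Library scaling cancels in a share, whereas it bears on every comparison of totals. Mango is a climacteric fruit, in which ethylene sets off the softening, sweetening and colouring of the flesh after harvest. The files do not pair transcripts with gene names and 0 of the 30582 names matched the gene table of the mango reference, so no function is given to any locus, and no sequence is shown.

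Reads per transcript were worked out from the deposited means and fold changes. Recovered reads came to 52778918 to 75039503 a library. Healthy fruit at 10 days stood apart, since locus 2 took 72.3% of its reads against 21.6% to 51.3% in the other libraries. Outside loci 2 and 3 it kept 9792435 reads, against 19393764 to 27966100. In the order healthy 5 days, healthy 10 days, spongy 5 days and spongy 10 days, which is kept for every set of 4 values below, the 20 loci took 5.89%, 3.98%, 3.47% and 3.32% of the reads left without loci 2 and 3. Every member had reads in every library, with medians of 1187, 262.5, 666 and 517 reads, and the lowest value was 5 reads. Intervals in parentheses are 95% Wilson intervals, which cover counting error only. The sources used here do not give how reads matching more than 1 transcript of a locus were counted. If such reads were counted for each, the intervals are too narrow and the shares of similar transcripts are drawn together.

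Totals came first, since a share is read against them. Locus 178 had a total of 45391, 32676, 11999.5 and 7915 normalized reads. Both spongy libraries lay below both healthy ones, by 3.78-fold at 5 days and 4.13-fold at 10 days. Locus 10 had 115318, 223759, 44848 and 56384, and locus 135 had 56652, 51456, 19848 and 15670. In both of these the spongy libraries were again the low ones, by 2.57-fold and 3.97-fold in locus 10 and by 2.85-fold and 3.28-fold in locus 135. With equal totals per library the ratio at 10 days was 1.09-fold lower in locus 178, 1.05-fold lower in locus 10 and 1.15-fold higher in locus 135. With loci 2 and 3 left out of that total it was 2.87-fold, 2.76-fold and 2.28-fold lower in the same order. Locus 3024 went the other way, with 1951, 2739, 13808 and 4216, and was 7.08-fold higher in spongy fruit at 5 days. Its transcripts could pass the level minimum through that library, so this ratio may be partly set by the choice of members.

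At 5 days 6 of the 20 spongy totals were 2-fold or more below the healthy ones, where 31.4% of all 118 loci with 10 or more kept transcripts were, and 1 was 2-fold or more above, against 4.24%. At 10 days 7 were lower, against 22.9%, and 1 was higher, against 5.08%. The total was lower in both spongy libraries than in both healthy ones in 12 of the 20 loci, where 55.9% of the 118 loci showed it. The counts of lower totals were thus near those of the 118 large loci, which include the 20, at 5 days and somewhat above them at 10 days. The median log2 ratio of the 20 totals was -0.41 at 5 and -0.77 at 10 days, against -0.02 and 0.02 for all kept transcripts. The split of the totals turned with the scaling at 10 days. When every library was given the same total of reads, 11 spongy totals were 2-fold or more above the healthy ones and 0 were 2-fold below, and when loci 2 and 3 were left out of that total, 2 and 3 were. At 5 days the same 2 scalings gave 1 higher and 14 lower, and 1 and 7. With equal totals the median over all kept transcripts was itself shifted, to -0.79 at 5 and 1.94 at 10 days on the log2 scale.

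**Figure D1:**
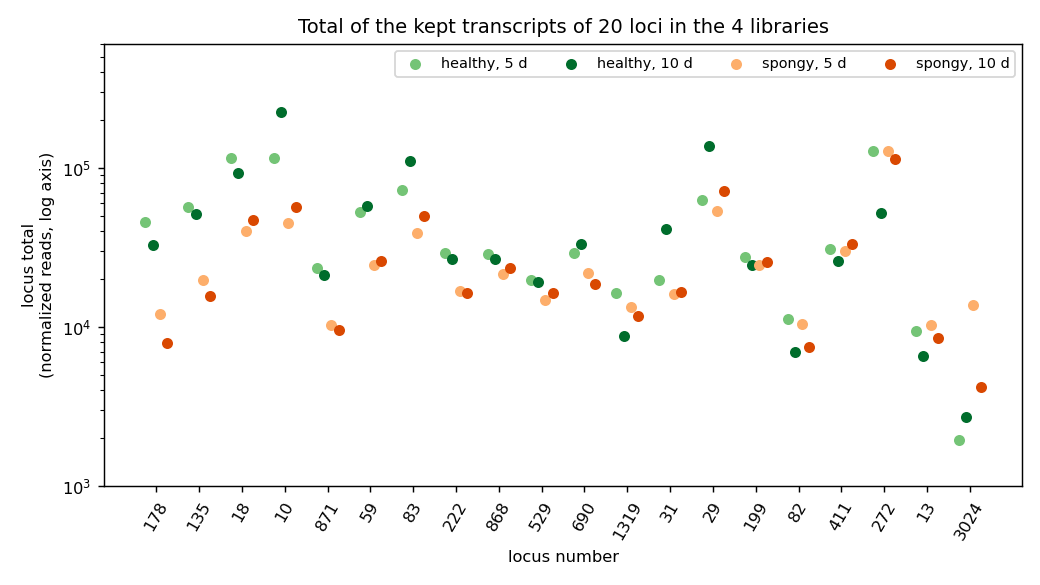
Total of the kept transcripts of each of the 20 loci in each of the 4 libraries, in normalized reads under the authors' scaling on a log axis, with loci ordered by the ratio of spongy to healthy fruit at 5 days. Each point is 1 library, so there are no error bars. Locus 178 at the left stood at 45391 in healthy and 11999.5 in spongy fruit at 5 days, and locus 3024 at the right stood at 1951 and 13808.

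No locus was ruled by 1 transcript. The leading transcript, that with the most reads, held 4.43% of locus 272 and 19.6% of locus 199 in healthy fruit at 5 days, the lowest and the highest share of a leader in that library. The number of equally used transcripts that would give the same evenness (the inverse of the summed squared shares) ran from 7.01 in locus 29 to 31.2 in locus 272 there. It was higher in both spongy libraries than in both healthy ones in 9 loci (222, 868, 135, 18, 10, 3024, 29, 178 and 529), against 32.2% of the 118 large loci. It was lower in both spongy libraries in 3 loci (411, 31 and 871), against 19.5%. Locus 29, among the 9 with the higher number in spongy fruit, had 7.01 and 7.44 equally used transcripts in healthy and 9.85 and 11.4 in spongy fruit. In locus 871 the number was 16.7, 16.2, 15.7 and 12.4, so that spongy fruit at 10 days spread its reads over the fewest transcripts.

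How far the shares of a locus differ between a pair of libraries is summed here as the share distance, the percentage points of the locus total that would have to pass from some transcripts to others to turn one library's shares into the other's. Counting error alone gives a distance above 0, and the mean distance it gives was worked out from the reads. Between spongy and healthy fruit the median share distance of the 20 loci was 10.8 points at 5 days and 11.9 at 10 days. Counting error alone would give medians of 1.58 and 2.36. Among all 118 large loci the median distances were 6.36 and 8.03. Between the stages the 20 loci had a median distance of 5.26 points in healthy and 6.83 in spongy fruit, against 6.97 and 5.01 in the 118. The distance was over 3 times the counting value in 13 of the 20 loci between spongy and healthy fruit at 5 days (56.8% of the large loci), and in 13 at 10 days (48.3%). Between the stages this held for 9 loci in healthy (45.8%) and 10 in spongy fruit (33.9%).

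The mean distance between conditions was larger than that between stages in 17 of the 20 loci, where 61.9% of the 118 showed it. Loci 82, 83 and 272 were the other 3. Among the 17 the conditions and stages were nearly level in locus 1319, with means of 3.90 and 3.86 points. They were also close in locus 59, with 2.58 and 2.51, and in locus 871, with 7.83 and 7.37. Locus 29 had the highest ratio, 3.66, with a mean of 17.2 points between conditions and 4.69 between stages. Locus 529 followed, with 13.2 and 4.17 points. Libraries that differed in both ways had median distances of 12.6 points (healthy at 5 against spongy at 10 days) and 8.82 points (healthy at 10 against spongy at 5 days).

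**Figure D2:**
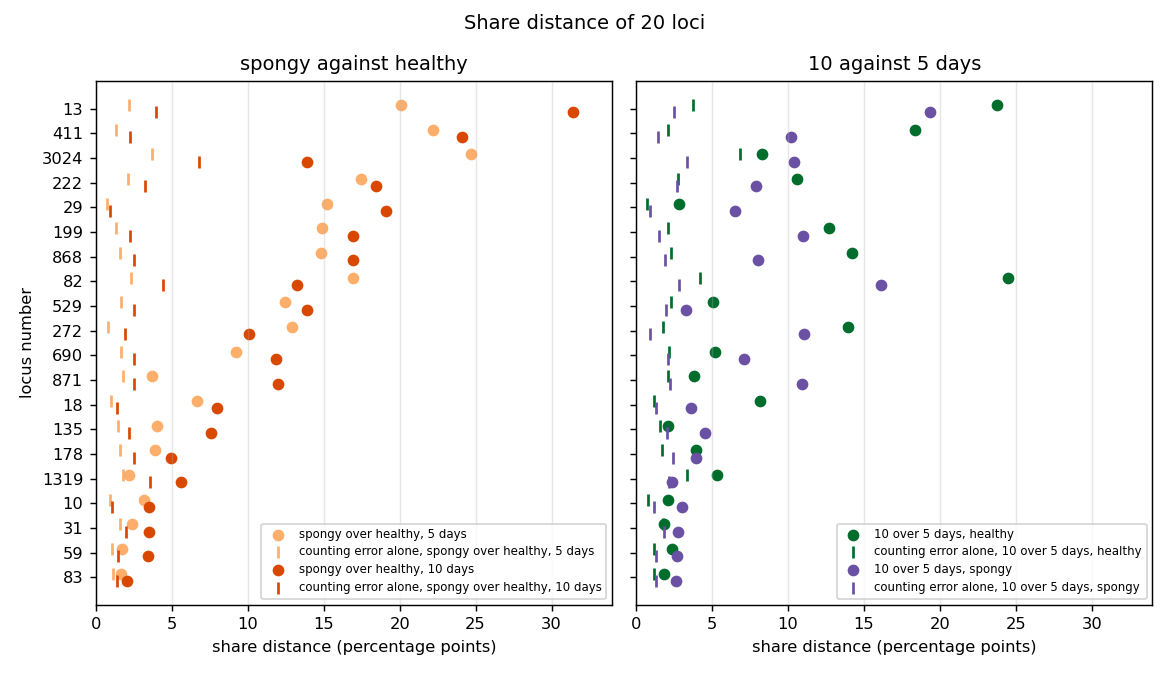
Share distance of the 20 loci in percentage points, between spongy and healthy fruit at each stage (left) and between the stages in each condition (right), with loci ordered by their mean distance between conditions. Dots are the measured distances of 1 library against 1 library and upright bars the mean distance counting error alone would give. Distances run from 1.65 points in locus 83 at 5 days to 31.4 points in locus 13 at 10 days.

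Single transcripts were set at a 2-fold difference of share, taken after adding 1 to every normalized level. Between spongy and healthy fruit at 5 days 66 of the 616 shares were 2-fold or more apart, where 9.25% of the 1945 transcripts of the large loci and 4.51% of the 12080 transcripts of all loci with 2 or more kept transcripts were. In 57 the spongy share was the higher one, against 6.58%, and in 9 the lower one, against 2.67%. At 10 days 86 were apart, against 11.6%, with 68 higher in spongy fruit and 18 lower, against 7.30% and 4.32%. Locus 29 alone gave 17 of the higher ones at each stage. Without it 40 of 590 transcripts (6.78%) were higher at 5 days and 51 (8.64%) at 10 days. The percentages of the large loci include the 616 members, locus 29 among them, so they are not a like set for these counts. Both stages showed the higher share for 44 transcripts of 10 loci, against 4.58%, or 28 of 590 (4.75%) without locus 29. The lower share was found at both stages for 4 transcripts, against 1.34%, and 0 transcripts were 2-fold apart in opposite directions at the stages, against 0.103%. In each of the 66 and 86 cases the intervals of the paired shares did not overlap, a check added after the data were seen. Picking shares for a 2-fold difference in the same reads makes this likely beforehand. The intervals hold counting error only, so the check adds no support. The 44 were mostly minor forms, with a median share of 1.08% against 2.49% for all 616.

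Most 2-fold differences in level came without a 2-fold difference in share. At 5 days the levels of 249 transcripts differed at least 2-fold between spongy and healthy fruit, against 42.3% in large loci, and for 46 of the 616 the share also differed 2-fold the same way, against 5.91%. At 10 days these counts were 302, against 37.7%, and 37, against 6.84%. Between the stages 137 levels differed 2-fold in healthy fruit, against 22.3%, and 31 of these shares with them, against 4.06%. In spongy fruit 52 levels did, against 6.43%, and 17 of the shares, against 1.54%. The level counts depend on the scaling and the share counts do not. DESeq2 had been run by the authors on 1 library per group, and the authors' deposited table gave 8 members an unadjusted p under 0.05 at 5 days (1.74% of all transcripts) and 2 at 10 days (2.18%). No member (0 of 616) had an adjusted p under 0.05 in the authors' deposited table, where the smallest was 0.980 at 5 and 0.827 at 10 days.

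The comparisons at 5 and at 10 days use separate libraries, and their share differences ran alike. Across the 616 transcripts the share difference of spongy minus healthy at 5 days and that at 10 days were correlated, with Pearson's r at 0.73 and Spearman's rho at 0.60. In large loci, over 1945 transcripts, r was 0.59 and rho 0.43. Shares of a locus sum to 100%, and its transcripts share sequence, so these points are not independent and no p is given. Within loci the correlation was above 0 in 17 of 20, with a median of 0.77, and no like count is given for the large loci. It was 0.95 in loci 3024 and 272 and 0.93 in locus 29, and the 3 below 0 were locus 59 at -0.22, locus 83 at -0.17 and locus 1319 at -0.09, which are among the loci of small share distance.

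**Figure D3:**
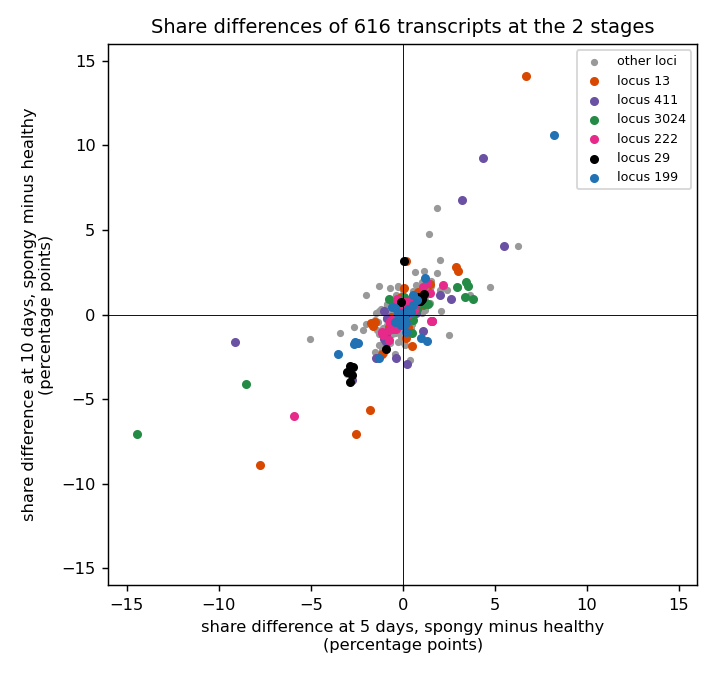
Share difference of each of the 616 transcripts, spongy minus healthy in percentage points, at 5 days (horizontal) and at 10 days (vertical), with the 6 loci of the largest mean distance in colour. Each point is 1 transcript, from 1 library against 1 library at each stage. The Pearson correlation was 0.73, and transcript 337 of locus 13 lies at the upper right.

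Locus 13 had the largest mean distance between conditions, 20.1 points at 5 and 31.4 at 10 days. Under the authors' scaling its total was 1.09-fold and 1.28-fold higher in spongy fruit. With equal totals per library it was 1.57-fold lower at 5 days and 4.84-fold higher at 10 days. Its transcript 337, of 4508 nt, held 6.83% (6.46 to 7.21), 4.89% (4.13 to 5.80), 13.5% (12.9 to 14.1) and 19.0% (18.2 to 19.8) of the locus. It led the locus in both spongy libraries, and the intervals of the healthy and spongy libraries do not overlap. It was named for the largest gain in spongy fruit, which makes this likely beforehand, so it adds no support. Transcript 437, of 5870 nt, held 16.1%, 16.7%, 8.36% and 7.75% and had the largest loss at both stages. Healthy fruit at 10 days was led by transcript 618, with 16.7% on 431 reads against 16.7% on 429 for transcript 437, a tie within counting error. The read-weighted mean length of the locus was 4380 nt, 3975 nt, 3809 nt and 3564 nt, lower in both spongy libraries. Only 26 of the 178 listed transcripts of locus 13 passed the level minimum, and the others held 31.1% to 36.0% of its listed reads.

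In locus 411 a pair of transcripts held only a small share of the locus in healthy fruit. Transcript 217, of 1387 nt, held 0.361% (0.31 to 0.41), 0.413% (0.31 to 0.56), 4.71% (4.504 to 4.93) and 9.69% (9.40 to 10.0), from 204, 42, 1793 and 3583 reads. Transcript 219, of 1439 nt, held 0.318%, 0.364%, 3.55% and 7.12%. Each was higher in spongy fruit, by 13.0-fold and 11.0-fold at 5 days and by 23.3-fold and 19.4-fold at 10 days. Together they took 16.8% of the locus in spongy fruit at 10 days. Transcript 219 passed the level minimum only through the spongy libraries, so its ratios are given as a description. Transcript 27, of 2614 nt, stood out in the other direction, with 11.5% (11.3 to 11.8) in the first library, healthy fruit at 5 days, and 3.22%, 2.42% and 1.62% in the others. Transcript 227, of 1591 nt, led both spongy libraries with 12.5% and 13.0%, after 7.03% and 8.91% in healthy fruit. Transcript 222 led healthy fruit at 10 days with 9.35% and varied little, from 7.46% to 9.35%. The largest loss at 10 days was that of transcript 188, with 5.73%, 7.01%, 2.96% and 3.15%. The total of the locus was nearly level under the authors' scaling, with 30791, 26116, 30029.9 and 33318 normalized reads. With equal totals per library it was 1.76-fold lower in spongy fruit at 5 days and 4.82-fold higher at 10 days.

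In locus 3024 the share distance between spongy and healthy fruit was 24.7 points at 5 days, against 3.69 from counting alone, and 13.9 at 10 days, against 6.80, which is under 3 times the counting value. Transcript 150, of 2590 nt, held 17.4% (16.2 to 18.7), 15.0% (13.0 to 17.3), 2.98% (2.74 to 3.24) and 7.97% (7.23 to 8.78), from 625, 160, 521 and 373 reads. Its level was 340.2, 411.1, 411.2 and 336.2 normalized reads, a range far narrower than that of the locus total, and it led every library but spongy fruit at 5 days. Transcript 155, of 1494 nt, had the lowest share ratio of all members at 5 days, 9.60-fold lower in spongy fruit, with 9.51%, 7.88%, 0.977% and 3.76%. Transcript 105, of 6105 nt, led spongy fruit at 5 days with 7.98%, after 4.19% and 5.35% in healthy fruit, and transcript 104, of 6307 nt, had 4.41%, 4.69%, 7.83% and 6.63%. The read-weighted mean length was 3255 nt and 3423 nt in healthy and 3979 nt and 3728 nt in spongy fruit. This locus had the fewest reads in healthy fruit at 10 days, 1066, and its stage distance there, 8.27 points, was close to the 6.87 that counting alone would give.

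Locus 222, the largest, was the 1 locus of the 20 with a leader shared by both healthy libraries and another shared by both spongy ones. Transcript 179, of 1859 nt, led in healthy fruit and held 10.4% (10.1 to 10.6), 8.90% (8.37 to 9.47), 4.47% (4.20 to 4.76) and 2.88% (2.65 to 3.14). Transcript 131, of 6065 nt, led in spongy fruit and held 5.28%, 6.65%, 7.46% and 8.43%. The largest gain at 10 days was that of transcript 58, of 3444 nt, with 1.03%, 0.966%, 2.36% and 2.82%. The distance was 17.4 points at 5 and 18.4 at 10 days, against 10.6 and 7.89 between the stages.

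In locus 29 transcripts were set in blocks by their shares and share ratios. Transcripts 1, 2, 7, 9, 10 and 11, the 6 with over 5% of the locus in every library, together held 90.2%, 87.6%, 75.02% and 68.5%. Their share ratios of spongy to healthy fruit all lay between 0.82 and 0.88 at 5 days and between 0.76 and 0.80 at 10 days. Another 16 transcripts, of 902 nt to 2910 nt and each under 2% of the locus, together held 7.95%, 10.1%, 22.7% and 25.001%. The rule fixes that each was higher in spongy fruit. The ratios ran from 2.57-fold to 3.36-fold at 5 days and from 2.001-fold to 3.04-fold at 10 days. Between the stages the same 16 ratios lay between 1.07 and 1.63 in healthy and between 1.004 and 1.201 in spongy fruit. In normalized reads the 16 together had 5024, 13844, 12228 and 17800.4, and the other 10 transcripts 58171, 122985, 41647 and 53398. Transcripts 5, 15 and 52 fell in neither block. Their ratios of spongy to healthy fruit were 0.93, 1.97 and 2.79 at 5 days and 1.44, 1.45 and 1.94 at 10 days. Transcript 24, of 2194 nt, was also outside the blocks, with 0.0560%, 0.0319%, 0.0996% and 3.20% of the locus from 65, 17, 68 and 2528 reads. It was high in spongy fruit at 10 days alone and had the highest share ratio of any member there, 98.0-fold above healthy fruit. It passed the level minimum only through that library, so the ratio is given as a description. Transcript 1 led all 4 libraries, with 18.1%, 17.3%, 15.0% and 13.9%, followed by transcript 2 with 17.6%, 17.0%, 14.7% and 13.1%, and transcript 39, with the largest gain at 5 days, held 0.534%, 0.608%, 1.67% and 1.85%. The values of the transcripts were known when these blocks were picked.

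Locus 199 had nearly level totals under the authors' scaling, 27513, 24459, 24607.5 and 25779 normalized reads, while its shares differed. With equal totals per library its spongy total was 1.92-fold lower at 5 days and 3.98-fold higher at 10 days. Transcript 213, of 3587 nt, held 4.97% (4.78 to 5.16), 8.36% (7.82 to 8.94), 13.2% (12.8 to 13.6) and 19.0% (18.5 to 19.4). It was higher in spongy than in healthy fruit at each stage and higher at 10 than at 5 days in each condition, with no overlap of the intervals. It was named for the largest gain in spongy fruit, which makes the lack of overlap between conditions likely beforehand. Transcript 152, of 4812 nt, led the first 3 libraries with 19.6%, 17.9% and 18.3% and came second to transcript 213 in spongy fruit at 10 days with 15.4%. Transcript 103, of 4189 nt, held 8.12%, 6.11%, 4.62% and 3.76%. Transcript 168 of the same locus was the 1 member with a 2-fold higher share at the later stage in healthy and in spongy fruit alike, against 0.308% in large loci, with 0.0950%, 0.504%, 0.648% and 1.64%.

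**Figure D4:**
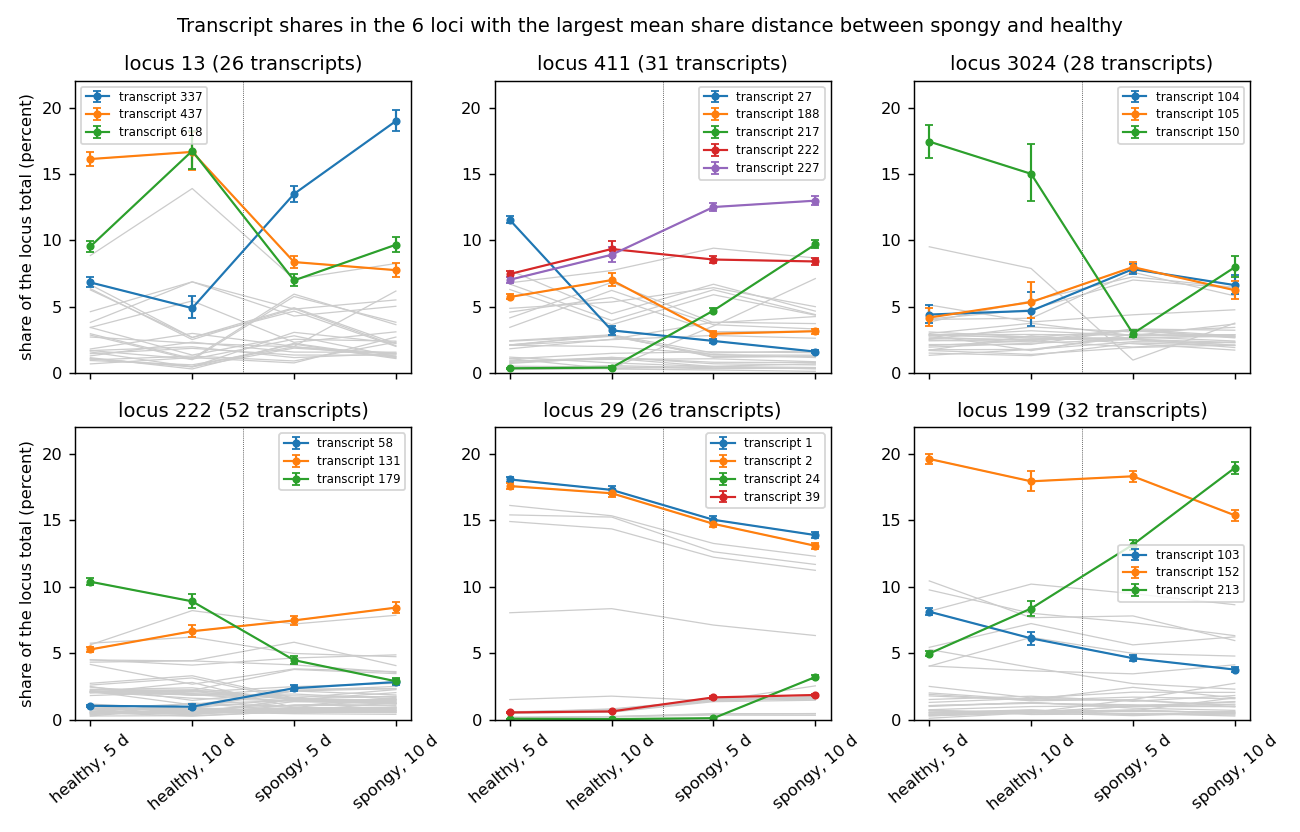
Share of each transcript in the total of its locus, in percent, in the 4 libraries for the 6 loci with the largest mean share distance between spongy and healthy fruit. Grey lines are all kept transcripts, coloured lines the leading transcripts and those with the largest gain or loss, and error bars 95% Wilson intervals of counting error, with 1 library per point. In locus 29 the 6 upper lines summed to 90.2% in the first library and 68.5% in the last.

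Among the other loci, locus 868 had distances of 14.8 points at 5 and 16.9 at 10 days between spongy and healthy fruit, near those of locus 199, and locus 529 had 12.5 and 13.9. In locus 690 transcript 35, of 5633 nt, held 1.71%, 1.32%, 7.95% and 5.41%, while transcript 176 led every library at 9.61% to 11.5%. In locus 18 the 5 transcripts higher in spongy fruit at both stages, all short at 446 nt to 1428 nt, together held 2.68%, 3.15%, 7.62% and 9.59%. In locus 10, where the mean distance was only 3.35 points, transcript 56 held 0.766%, 0.204%, 1.82% and 2.11%, and transcript 58 held 0.135%, 0.00574%, 0.417% and 0.157% from 285, 5, 237 and 98 reads. In locus 868 transcript 3, of 1657 nt, held 12.3%, 9.31%, 7.27% and 7.87%, and transcript 94, of 4614 nt, led spongy fruit at 5 days with 9.94%. In locus 529 the leader, transcript 135, held 11.8% and 12.7% in healthy and 8.78% and 9.16% in spongy fruit. In locus 871 transcript 47, of 2530 nt, held 8.63%, 10.5%, 10.5% and 16.8%, so that spongy fruit at 10 days stood above the others. These transcripts were named after their values were seen.

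At the other end, loci 83 and 59 kept their shares almost fixed while their totals were lower in spongy fruit, by 1.88-fold and 2.17-fold at 5 days and by 2.22-fold and 2.21-fold at 10 days under the authors' scaling. With equal totals per library their totals at 10 days were instead 1.70-fold and 1.71-fold higher in spongy fruit, so that direction depends on the scaling. With loci 2 and 3 left out of that total, both were again lower in spongy fruit, by 1.54-fold each. Locus 83 had totals of 72852, 110137, 38851 and 49645 normalized reads, and share distances of 1.65 points at 5 and 2.05 at 10 days, against 1.12 and 1.37 from counting alone. Transcript 57, which led it in every library but spongy fruit at 10 days, held 5.88%, 5.85%, 6.01% and 5.60%, and transcript 58, which led there, held 5.75%, 5.81%, 5.88% and 5.72%. The largest gains of this locus were those of transcript 60 at 5 days, with 5.59% and 5.89%, and of transcript 48 at 10 days, with 5.30% and 5.68%, and the largest loss at 5 days was that of transcript 13, with 2.54% and 2.34% in healthy and spongy fruit. Locus 59 had totals of 53090.3, 57839, 24414 and 26165 and distances of 1.75 and 3.41 points. Transcripts 7 and 35 led it in turn, with 15.7%, 15.4%, 15.97% and 15.7% for the former and 15.3%, 15.5%, 15.0% and 15.9% for the latter. The intervals of these 2 transcripts overlapped in every library but spongy fruit at 5 days, where transcript 7 was the higher. The gains and losses of transcripts 9, 20, 32 and 46 of locus 59 were all under 1 point. The largest share ratio between spongy and healthy fruit in any transcript was 1.88-fold in locus 83, 1.52-fold in locus 59 and 1.34-fold in locus 1319.

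Between 10 and 5 days of healthy fruit the share distances were largest in loci 82, 13 and 411. In locus 82 the distance was 24.5 points. Transcript 679, of 1418 nt, held 6.24% (5.92 to 6.58), 13.2% (12.0 to 14.6), 8.73% (8.26 to 9.22) and 12.1% (11.4 to 12.8), higher at 10 days in both conditions. Transcript 496, of 2645 nt, which led the first library, held 8.69%, 5.10%, 6.68% and 6.26%, and transcript 502, of 2373 nt, held 8.38%, 4.55%, 7.10% and 6.23%. Only 32 of the 215 listed transcripts of locus 82 were kept, and the others held 35.2% to 46.2% of its listed reads. In locus 13 the distance was 23.7 points, with the largest gain in transcript 618, from 9.54% at 5 to 16.7% at 10 days, and the largest loss in transcript 379, of 7595 nt, from 6.66% to 2.68%. In locus 411, at 18.3 points, the largest gain was that of transcript 103, from 3.45% to 6.23%, and the largest loss that of transcript 27 given above.

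In healthy fruit 41 of the 616 shares were 2-fold or more apart between the stages, against 6.38% in large loci. Of these, 14 were higher at 10 days, against 3.03%, and 27 were lower, against 3.34%. The leading transcript differed between the stages of healthy fruit in 7 loci, against 35.6%. In only 3 of them did it stand above the other beyond the intervals in both libraries, a count not given for the large loci. Totals of loci 29 and 31 were 2.17-fold and 2.09-fold higher at 10 days, against 5.08% of large loci at least 2-fold higher, and that of locus 272 was 2.44-fold lower, against 10.2%. The direction of the first 2 turned when every library was given the same total of reads, where all 20 totals were at least 2-fold lower at 10 days. With loci 2 and 3 left out of that total, loci 29 and 31 stayed higher, by 1.31-fold and 1.27-fold. Of the 20 totals 6 were then at least 2-fold lower and 0 at least 2-fold higher. The median log2 ratio of all kept transcripts was -2.76 and -0.74 under these 2 scalings. In the authors' deposited table the stages of healthy fruit gave 3 members an unadjusted p under 0.05 (1.33% of all transcripts) and 0 an adjusted p under 0.05.

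In spongy fruit the stages differed in fewer shares. A 2-fold difference was found for 22 transcripts, against 2.42%, with 10 higher at 10 days, against 0.977%, and 12 lower, against 1.44%. The largest distances were those of locus 13, 19.4 points, locus 82, 16.1, and locus 272, 11.1. In locus 13 transcript 337 gained most, from 13.5% to 19.0%, and transcript 381, of 7693 nt, lost most, from 4.86% to 2.06%. In locus 82 transcript 642, of 1597 nt, held 4.80%, 7.25%, 5.44% and 9.74%, and transcript 477, of 2345 nt, 1.22%, 0.665%, 4.87% and 1.83%. Locus 272, with 43 kept transcripts, had the highest number of equally used transcripts of the 20 in each library. Its transcripts 58 and 78 changed places as leaders with the stage in both conditions. Transcript 78, of 3093 nt, held 2.38% (2.32 to 2.45), 3.66% (3.41 to 3.93), 3.60% (3.52 to 3.70) and 4.55% (4.44 to 4.67), and transcript 58, of 2996 nt, 4.43%, 3.62%, 3.63% and 3.02%. These leads were within counting error in healthy fruit of the later and spongy fruit of the earlier stage. Transcript 76 of locus 272 held 1.67%, 2.92%, 2.93% and 4.11%, and transcript 56 held 4.23%, 3.53%, 3.46% and 2.62%. Locus 3024 had the 1 total at least 2-fold apart between the stages of spongy fruit, 3.27-fold lower at 10 days, against 0.847% of large loci. In the authors' deposited table the stages of spongy fruit gave 0 members an unadjusted p under 0.05, against 0.406% of all transcripts.

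The stage comparisons of healthy and of spongy fruit also use separate libraries. Between healthy and spongy fruit the share differences of 10 minus 5 days gave Pearson's r of 0.40 and Spearman's rho of 0.37 over the 616 members, and the gap to the 0.73 and 0.60 above was not tested. Shares at least 2-fold lower at 10 days in both conditions were found for 8 transcripts, against 0.617% in large loci. Of these, 4 lie in locus 13, transcripts 373, 379, 380 and 381, of 4419 nt to 7693 nt, and together held 22.7%, 9.24%, 17.3% and 7.53% of it. The rule that picked these transcripts fixes that both libraries of 10 days were low.

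Leaders often differed between libraries. The same transcript led all 4 libraries in 6 loci (690, 135, 10, 29, 178 and 529), 12 loci had 2 leaders and loci 411 and 13 had 3. Between spongy and healthy fruit the leader differed in 9 loci at 5 days, against 35.6% of large loci, and in 6 at 10 days, against 34.7%. In 6 and 3 of these it stood above the other beyond the intervals in both libraries. Between the stages of spongy fruit it differed in 8 loci, against 28.8%, and in 2 beyond the intervals. Each locus was also weighed by transcript length. The read-weighted mean length was higher in both spongy libraries than in both healthy ones in 7 loci (222, 135, 3024, 29, 529, 31 and 871), against 20.3% of large loci, and lower in both in 5 (18, 411, 10, 13 and 178), against 28.0%. Shares of reads favour long transcripts, so a leader is the transcript with the most reads and need not be the one with the most molecules. With shares per length the leader differed in 11 loci at 5 and 10 at 10 days between spongy and healthy fruit. For the counts beyond the intervals and those per length no share over the large loci is given, so they are descriptions only.

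Among the 20, loci under which the assembly counted more transcripts tended to have larger share distances. The transcript names count 49 transcripts under locus 59 and 679 under locus 82, of which only a part is listed. Across the 20 loci this number and the mean distance between conditions had a Spearman correlation of 0.70, and the number and the mean distance between stages one of 0.75. Across the 98 large loci outside the 20 these were 0.30 and 0.25. Each name also carries a confidence value, whose meaning the files do not give. The 8 loci with a median confidence under 0.1 (222, 690, 868, 82, 199, 411, 13 and 529) had mean distances of 10.5 to 25.8 points between conditions, with a median of 15.9, and the other 12 loci 1.85 to 19.3 points, with a median of 5.12. The groups overlap through loci 29, 272 and 3024, which had high confidence and large distances. The lowest number of reads of a locus in any library had a Spearman correlation of -0.49 with the distance between conditions and -0.53 with that between stages. Across the 98 large loci outside the 20 these were -0.42 and -0.54. Median confidence gave -0.50 and -0.42 across the 98, further from 0 than the values of the assembled number there. These properties move together, the limit of 0.1 was chosen after the values were seen, and their part in the share differences was not tested.

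**Figure D5:**
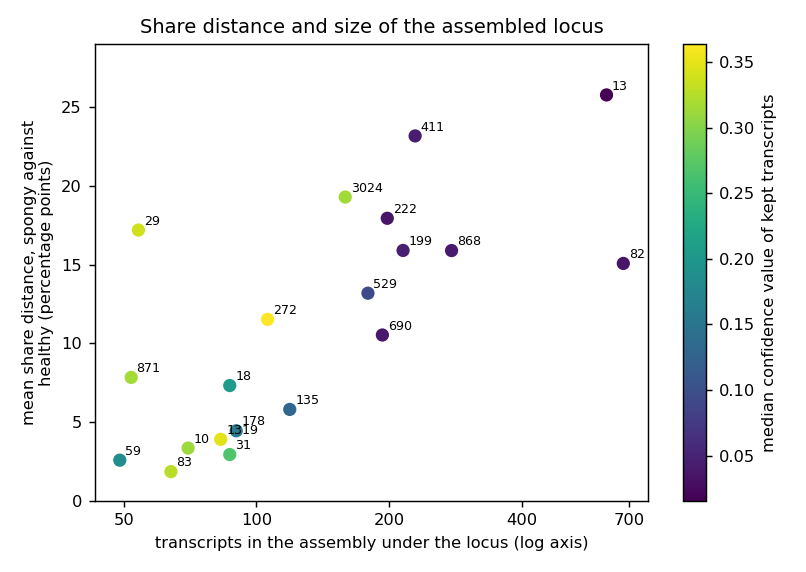
Mean share distance between spongy and healthy fruit over the 2 stages, in percentage points, against the number of transcripts the assembly counts under the locus (log axis), for the 20 loci labelled by number, with colour for the median confidence value of the kept transcripts. The Spearman correlation was 0.70, and loci 29 and 3024 combine high confidence with distances of 17.2 and 19.3 points.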

How the data were processed

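RNA from fruit mesocarp was sequenced in 4 libraries, 1 per group. Bowtie2 2.2.3, CASAVA 1.8.2 and DESeq2 appear in the submitters' processing notes, while assembly, read counter and model are not given in the sources used. The deposited mean is a signal, reads divided by size factors and averaged over the 4 libraries, per the file headers. Per the file headers, the authors also deposited log2 fold changes with standard errors, a test statistic (a score), and p-values before and after adjustment.

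The deposited fold changes and the mean fix the level in each library. Levels were whole multiples of the inverse of a size factor (1.84, 0.389, 1.27 and 1.11): 99.98% of the 103991 values below 1000 reads lay no more than 0.05 from a whole number, against 9.95% with the fold changes read in the opposite direction, which set that direction. Values under 0.35 read were set to 0. Shares were computed from these reads, with 1 added to each level for share ratios. The steps were tested on simulated data. The members, the lists and the comparisons were chosen with earlier results of these data known. Detailed loci were the 6 with the highest and the 2 with the lowest mean share distance between conditions, and the 3 with the highest in each stage comparison. Their leaders and the transcripts of largest gain and loss were named, and other named transcripts were chosen after their values were seen. The counting distance is the mean of absolute normal errors at the reads observed. Alternatives were a minimum level of 50 or none, shares per length, 0 or 10 added, the same total per library with or without loci 2 and 3, and TMM factors (trimming 30% of ratios and 5% of levels). Tools were matplotlib 3.10.9, scipy 1.17.1, pandas 2.3.3 and numpy 2.4.6 under Python 3.11.15.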

Additional observations from a re-analysis of the deposited data

How the results depend on the processing

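Counts of shares 2-fold apart depended on the level minimum. With every listed transcript of the 20 loci they were 159 at 5 days and 244 at 10 days between spongy and healthy fruit, and 184 in healthy and 117 in spongy fruit between the stages, against 66, 86, 41 and 22. A minimum of 50 gave 72 and 44 between the stages. Those alternatives add transcripts of few reads. The counts of locus totals 2-fold apart were 15 at 5 days and 20 between the stages of healthy fruit with the same total per library, against 7 and 3, and 5 at 10 days and 6 in healthy fruit with the same total outside loci 2 and 3, against 8 and 3. The median share distance at 5 days was 11.7 points with no minimum and 11.6 with shares per length, against 10.8, and that between the stages of healthy fruit 5.70 and 6.001, against 5.26. Leading transcripts differed in 10 loci at 10 days with shares per length, against 6. Counted only beyond the intervals, a choice made after the data were seen, they differed in 3 loci at 10 days, 3 in healthy and 2 in spongy fruit between the stages. Of the 87 log2 share ratios of the transcripts named by the rule, 84 stayed within their counting interval with no minimum, 70 with shares per length and all 87 with a minimum of 50 or with 0 or 10 added. Of the share distances of single loci, 54 left their counting interval with shares per length and 26 did not, 23 did with no minimum and 11 with a minimum of 50. Past 1.5 times with shares per length went locus 18, to 11.8 points at 5 and 13.8 at 10 days between spongy and healthy fruit, against 6.63 and 7.999, and locus 178, to 5.92 and 7.88, against 3.92 and 4.97, and to 5.90 between the stages of healthy fruit, against 3.93. No share ratio of 2-fold or more among these changed sign. TMM factors left the counts of totals as they were. No paired analysis was possible because each group held 1 library, so no replicate number links samples, and stage was not used as a block. With 1 library per group no spread between replicates is known, and healthy fruit at 10 days, with 1066 to 87084 reads per locus, is the least precise.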

Other observations

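The listed transcripts under the level minimum held a small part of most of the 20 loci. They took under 6% of the listed reads in every library in 17 loci, and none in locus 871, where all 23 listed transcripts were kept. In locus 3024 they took 12.4%, 13.2%, 13.2% and 13.2% in healthy fruit at 5 and 10 days and spongy fruit at 5 and 10 days. In locus 82 the part was 40.3%, 46.2%, 44.8% and 35.2%, lowest in spongy fruit at 10 days, and in locus 13 it was 33.8%, 36.0%, 35.5% and 31.1%, again lowest there.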
